A study of Bos taurus with 8 samples.

Results

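The 27 genes described here carry cholesterol synthesis and its control by SREBP2, the sterol-sensing transcription factor encoded by SREBF2, and they were chosen by name: a probe belonged to the set when the array's gene name was one of the 27 symbols or an older alias such as SC5DL for SC5D. A single 60-base probe was found for each of 26 genes, STARD4 having none under that name, and 25 genes were tested out of 10207 tested genes in all. The probe named for FADS2 was not well above background on any of the 8 arrays and was left out of every count below.

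RNA from rumen epithelium of Holstein bulls was measured on 8 single-colour arrays, from calves numbered 21, 23, 24 and 25 with 1 array per diet each. Per the series text, 5 rumen-fistulated bulls aged 7.4 ± 0.3 months (the kind of error is not given) were fed a high-grain diet with corn flakes (control) or the same diet with 50% of those flakes exchanged for kraft pulp made from wood (WP), a fibre feed of mainly cellulose. The diets were crossed over after 14 days with no wash-out, so all animals received both high-grain rations, and the question is how the epithelium differed between them. Which diet a calf ate first is not known here, and 4 of the animals were analysed. A level below is log2 of the processed spot signal minus that array's own 75th percentile, and it is compared between arrays for 1 probe at a time, never between genes. Only for lists of cell type markers are signals also summed over genes.

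Cholesterol is built in the cytosol and endoplasmic reticulum from acetyl-CoA through mevalonate, farnesyl pyrophosphate, squalene and lanosterol. When membrane sterol is low, SCAP escorts SREBP2 to the Golgi, where it is cut to release the part that switches on nearly every gene of the pathway. When sterol is ample, the INSIG proteins hold SCAP and SREBP2 back. In a stratified, keratinised epithelium such as the rumen wall, cholesterol is a membrane component of dividing cells and, with ceramides and fatty acids, part of the barrier lipids of the outer layers.

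The probes below were chosen because the results turn on their genes. The array design gives their coordinates on UMD 3.1, and capitals mark the letters AATAAA, the usual polyadenylation signal, where they occur on the transcript strand. The probes of ACAT2 and TM7SF2 lie over genomic intervals longer than themselves (chr9:97480208-97480707 and chr29:43985462-43985608, both on the plus strand), so each is split over more than 1 block. The probe of MSMO1 lies at chr17:504859-504918 (plus strand) and that of FADS1 at chr29:40941970-40942029 (minus strand).
ACAT2: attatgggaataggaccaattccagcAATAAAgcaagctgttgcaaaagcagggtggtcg
TM7SF2: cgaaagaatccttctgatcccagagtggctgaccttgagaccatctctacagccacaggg
MSMO1: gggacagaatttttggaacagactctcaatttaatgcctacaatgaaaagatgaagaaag
FADS1: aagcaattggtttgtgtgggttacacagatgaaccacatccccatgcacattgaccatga

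For HMGCS1 and DHCR7 only a 30-base stretch of the probe is shown, at chr20:31475511-31475540 (plus strand) and chr29:48930327-48930356 (minus strand).
HMGCS1: gtgggtaactttgAATAAAgttttagagaa
DHCR7: ggacttctgtgtcacAATAAAgcaagtctc
AATAAA was found on the transcript strand of 5 of the 26 probes, 19.2%, against 9.51% of all 15008 probes, and on the opposite strand of 1. The exon or UTR in which a probe lies was not analysed here. Whether any of these AATAAA letters serves as a polyadenylation signal is therefore not known, that of the split ACAT2 probe included.

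The FADS2 probe was placed by the array design on chr14:39504978-39505037, whereas the FADS1 probe is on chromosome 29, where the RefSeq table also lists FADS2 next to FADS1.
FADS2: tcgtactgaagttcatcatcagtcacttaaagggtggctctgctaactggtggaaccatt
Its processed signal was 11.4 on the WP array of calf 24 and between 1.40 and 1.88 on the other arrays, so no level of FADS2, the delta-6 fatty acid desaturase, is given.

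All 8 arrays lay on 1 slide in 2 rows, the number of probes above background ran from 9314 to 11917, and no spot was saturated. The WP array of calf 24 stood apart, with a median negative-control signal of 4.06 against 1.20 to 1.90 elsewhere and 73 outlier spots against 2 to 6. The basal keratin genes KRT5 and KRT14, which mark the labelled epithelium, were above background on every array. The WP arrays of calves 21 and 23 and the control arrays of calves 24 and 25 were in row 1, and the other 4 in row 2, so each calf had 1 array in each row and each row held both diets.

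Of the 18 sterol synthesis enzymes, 16 had lower values on WP in calf 21 and 17 in calf 23, against 7 in calf 24 and 4 in calf 25. Of all 10207 tested genes, 4079, 4744, 3639 and 5101 were lower on WP in calves 21, 23, 24 and 25. Over the 4 calves 22 of 25 genes had negative WP minus control differences, where the share over all tested genes was 35.6%, and the median difference was -0.22 log2 against 0.09 over all genes. After adjustment in limma, fitted with a term for each calf, 0 of the 25 were under 0.05 (the smallest adjusted p was 0.658), and so were 0 of all 10236 probes, a background of 0%. Without adjustment 1 of the 25 was under 0.05, CYP51A1, lower on WP. The background was 6.98% of tested genes in either direction and 1.73% lower on WP. For no gene of the set did the 4 WP arrays lie wholly below the 4 control arrays, against a background of 1.17%. The WP value was the lower one in all 4 calves in 4 genes (MVK, PMVK, MSMO1 and SREBF2), 16% of the set where the background was 5.35%. Among them SREBF2 differed by only -0.00093 in calf 25. MVK was not well above background on the WP arrays of calves 23 and 24.

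The median over the 25 genes was -0.64 in calf 21 and -0.50 in calf 23, and 0.06 in calf 24 and 0.18 in calf 25. For the 18 synthesis enzymes alone it was -0.95, -0.64, 0.10 and 0.20. Over all tested genes it was 0.12, 0.028, 0.14 and 0.00026, so in calf 24 the set and its enzymes lay below all genes. In 12 of the 25 genes the difference was below 0 in both calves 21 and 23 and above 0 in both calves 24 and 25, a pattern held by 10.4% of all tested genes. Without calf 21, 14 of 25 genes were lower on WP and the median was -0.0050, against 37.7% and 0.065 over all tested genes. Without calf 23 the values were 17 of 25 and -0.070, against 34.9% and 0.10 over all genes. Without calf 24, whose WP array had the raised background, they were 20 of 25 and -0.35, against 42.0% and 0.050.

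**Figure D1:**
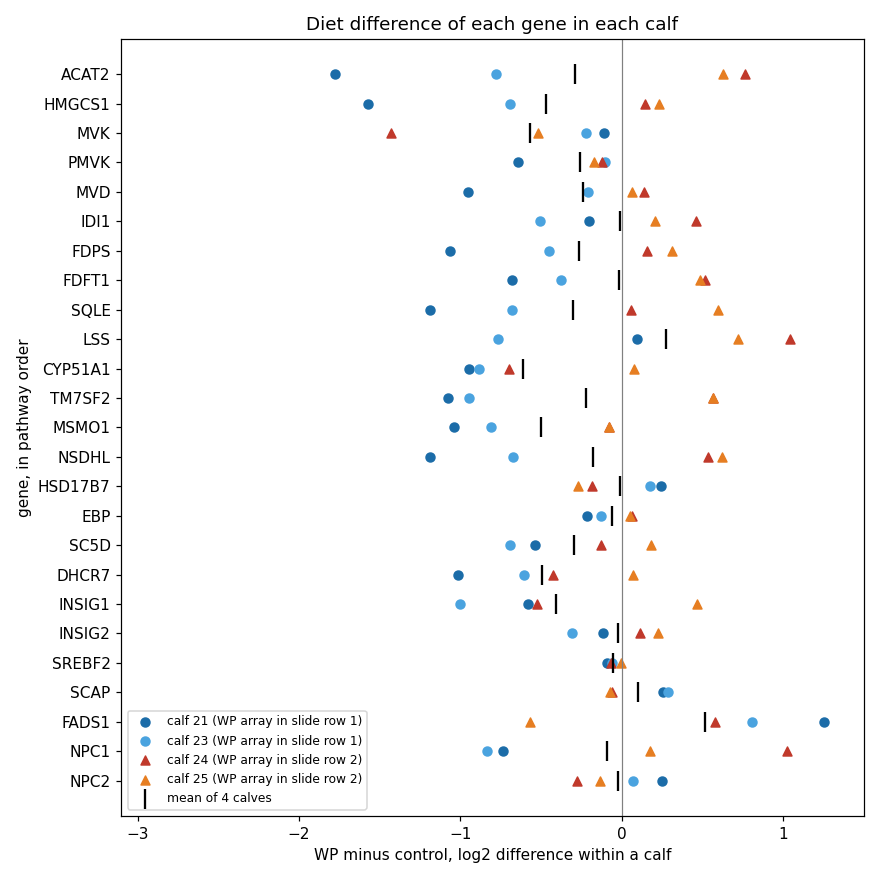
The horizontal axis is the WP minus control difference in log2 units within a calf, the vertical axis lists the 25 tested genes in pathway order, circles are calves 21 and 23, triangles calves 24 and 25, and the black bar is the mean of 4 calves. For most enzymes the circles lie left of 0 and the triangles near or right of it, while SREBF2 lies close to 0 in all 4 calves.

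ACAT2, the cytosolic thiolase that joins 2 acetyl-CoA, had the widest spread of calf differences of the set. ACAT2 read -0.71, -0.47, 0.48 and 0.27 on the WP arrays of calves 21, 23, 24 and 25 and 1.07, 0.31, -0.29 and -0.36 on their control arrays. HMGCS1, the cytosolic HMG-CoA synthase, read 0.78, 1.06, 1.43 and 1.87 on WP and 2.35, 1.75, 1.28 and 1.64 on control. In both genes the WP array was the lower one in calves 21 and 23 and the higher one in calves 24 and 25, so the diets overlapped. ACAT2 gave a mean difference of -0.29 ± 1.21 (SD, n = 4 calves; adjusted p = 0.844) and HMGCS1 -0.47 ± 0.84 (adjusted p = 0.678, both in limma with calf as a block). Without calf 21 they were 0.21 and -0.10.

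The enzymes from mevalonate to farnesyl pyrophosphate were less uniform. PMVK, phosphomevalonate kinase, read 4.23, 4.19, 4.16 and 3.98 on WP and 4.87, 4.29, 4.28 and 4.15 on control in calves 21, 23, 24 and 25. It was lower on WP in all 4 calves, by -0.26 ± 0.26 (SD, n = 4; adjusted p = 0.660 in limma), though by no more than 0.17 in size outside calf 21. Within slide row 1 its difference was -0.0073 and within row 2 -0.51. MVD, the decarboxylase that makes isopentenyl pyrophosphate, gave -0.24, IDI1, its isomerase, -0.0098 and FDPS, farnesyl pyrophosphate synthase, -0.26. All of these 3 were lower on WP in calves 21 and 23 and higher in calves 24 and 25. Without calf 21 the difference of MVD was -0.00075 and that of FDPS 0.0066.

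MVK, mevalonate kinase, differed more between the animals than any other gene of the set, and far more between animals than between diets. Its probe (chr17:65868632-65868691, minus strand) read -0.45 and -0.34 on the WP and control arrays of calf 21 and -1.01 and -0.49 in calf 25. In calf 23 it read -5.37 and -5.14, and in calf 24 -6.00 and -4.57. As processed signals these were 116 to 255 in calves 21 and 25 and 4.47 to 11.9 in calves 23 and 24, where the 2 WP arrays were not well above background. The range of the 4 calf means was 4.89 log2, against a median range of 0.42 over all tested probes, and 8 probes (0.0785%) had a wider one. No other gene of the 25 had a range of calf means over 1. MVK was lower on WP in all 4 calves (-0.57 ± 0.60, SD, n = 4; adjusted p = 0.658 in limma), but with 2 dim WP arrays the size of that difference is not set, and with normexp background correction it was -0.080 and without calf 24 -0.28.

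**Figure D2:**
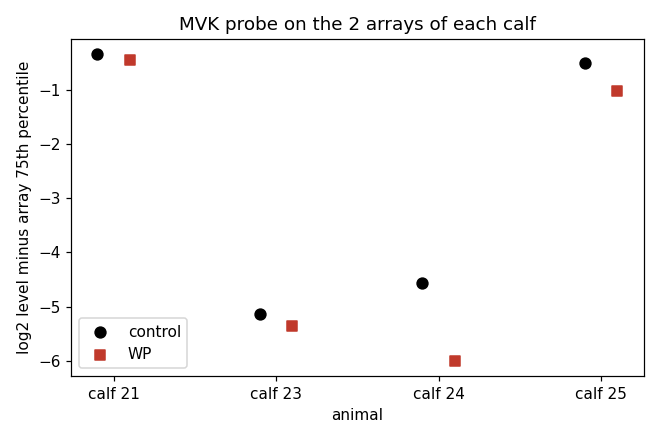
The vertical axis is the log2 level of the MVK probe minus the array's 75th percentile and the horizontal axis the animal, with circles for control arrays and squares for WP arrays. Both arrays of calves 21 and 25 lie between -1.01 and -0.34, and both arrays of calves 23 and 24 between -6.00 and -4.57.

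At the squalene steps the slide rows lay farther apart than the diets. FDFT1, squalene synthase, read 2.94, 2.97, 3.51 and 3.57 on WP and 3.62, 3.34, 3.0 and 3.09 on control in calves 21, 23, 24 and 25. SQLE, squalene epoxidase, a rate-limiting step after mevalonate, read 3.36, 3.38, 3.93 and 4.44 on WP and 4.55, 4.06, 3.87 and 3.84 on control. For both genes each of the 4 arrays in row 1 was below each of the 4 in row 2, whatever the diet. The diet differences were -0.014 ± 0.61 for FDFT1 and -0.30 ± 0.79 for SQLE (SD, n = 4), the latter -0.0078 without calf 21. LSS, which closes the ring to lanosterol, gave 0.27, with its probe dim and below background on the WP array of calf 23, and -0.25 with quantile scaling.

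Among the 4 largest negative differences of the set, 3 belong to enzymes between lanosterol and cholesterol, the other being that of MVK. CYP51A1, which removes the first methyl group of lanosterol, read 0.39, 0.67, 0.50 and 1.16 on WP and 1.34, 1.55, 1.19 and 1.08 on control in calves 21, 23, 24 and 25. MSMO1, the C4-methyl oxidase that follows, read -0.28, 0.02, 0.17 and 0.40 on WP and 0.77, 0.83, 0.24 and 0.47 on control. DHCR7, the last reductase before cholesterol, read 1.93, 2.06, 2.08 and 2.63 on WP and 2.95, 2.66, 2.50 and 2.55 on control. MSMO1 was lower on WP in 4 calves and the other pair in 3, with calf 25 close to 0 or slightly higher, and the diets overlapped in each.

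CYP51A1 gave -0.61 ± 0.47 (SD, n = 4), MSMO1 -0.50 ± 0.50 and DHCR7 -0.49 ± 0.45, each with an adjusted p of 0.658 in limma. Within a slide row, where arrays of different calves are compared, their differences were -0.61 and -0.61 for CYP51A1, -0.49 and -0.52 for MSMO1 and -0.53 and -0.45 for DHCR7 in rows 1 and 2. Within calves they were larger in size in calves 21 and 23 than in calves 24 and 25, at -0.91 and -0.31 for CYP51A1, -0.93 and -0.077 for MSMO1 and -0.81 and -0.18 for DHCR7. With slide row as a second block beside calf, unadjusted p-values in limma were 0.0218, 0.0089 and 0.0298, and MVK was the only other gene of the set under 0.05 (0.0387). That is 4 of 25, all lower on WP, against a background of 3.39% of tested genes lower on WP. Counted in either direction, 1014 of the 10207 tested genes were under 0.05 in this fit. After adjustment the p-value of these 4 genes was 0.488.

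Other enzymes of the late pathway were lower on WP by little or not steadily. SC5D, lathosterol oxidase, read -1.47, -1.0, -0.84 and -0.65 on WP and -0.93, -0.31, -0.71 and -0.84 on control in calves 21, 23, 24 and 25, a difference of -0.29 ± 0.40 (SD, n = 4). TM7SF2, a sterol C14 reductase, read -1.53, -1.72, -1.12 and -1.56 on WP and -0.45, -0.78, -1.69 and -2.12 on control. NSDHL, the C4 decarboxylating dehydrogenase, read 1.31, 1.60, 2.17 and 2.33 on WP and 2.50, 2.28, 1.63 and 1.71 on control. TM7SF2 and NSDHL thus ran opposite ways in the pairs of calves, by -1.01 and -0.93 in calves 21 and 23 and by 0.57 and 0.58 in calves 24 and 25. EBP, the sterol isomerase, gave -0.058. HSD17B7, the 3-keto sterol reductase, gave -0.0083 and had its higher WP values in calves 21 and 23, the opposite of its neighbours in the pathway.

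Among the genes that control SREBP2, SREBF2 and SCAP had small mean differences between the diets. Between animals SREBF2 varied more, with a range of calf means of 0.60 against 0.090 for SCAP. SREBF2 read 3.61, 3.23, 3.34 and 3.86 on WP and 3.70, 3.29, 3.40 and 3.86 on control in calves 21, 23, 24 and 25, so that each calf kept its own level on both diets. Its difference was -0.054 ± 0.038 (SD, n = 4; adjusted p = 0.877 in limma), negative in 4 of 4 calves and 0.0077 with quantile scaling. SCAP read 2.95, 2.88, 2.74 and 2.73 on WP and 2.69, 2.59, 2.79 and 2.80 on control, and was 1 of 3 genes with a positive difference over the 4 calves, 0.10 ± 0.20, beside LSS and FADS1. INSIG1, itself a target of SREBP2, read 0.59, 0.65, 0.48 and 1.74 on WP and 1.17, 1.64, 1.0 and 1.27 on control. INSIG1 was lower on WP in 3 calves and higher in calf 25 (-0.41 ± 0.62, adjusted p = 0.668 in limma), and INSIG2 gave -0.020.

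FADS1, the delta-5 fatty acid desaturase and a target of SREBP proteins, read -2.63, -3.32, -3.02 and -3.43 on WP and -3.88, -4.12, -3.60 and -2.86 on control in calves 21, 23, 24 and 25. It had the largest positive difference of the set, 0.52 ± 0.78 (SD, n = 4; adjusted p = 0.667 in limma), with higher values on WP in 3 calves, and it was 0.036 with quantile scaling. The FADS1 probe was dim, with processed signals of 16.5 to 35.1, though well above background on all 8 arrays. NPC1, the lysosomal membrane protein that exports cholesterol, read -2.97, -2.83, -1.23 and -2.33 on WP and -2.23, -2.0, -2.26 and -2.51 on control. NPC1 was lower on WP in calves 21 and 23 and higher in calves 24 and 25, and NPC2, its soluble partner, had the reverse signs and a mean difference of -0.021.

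Since each calf had its arrays in both slide rows, the change of sign between the calf pairs is the same quantity as a difference between the rows, and it was tested by a fit with calf, diet and row. Row 1 had lower values in 20 of 25 genes, where 54.5% of all tested genes were lower there, and the median difference was -0.34 log2 against -0.028 over all genes, larger in size than the -0.22 between the diets. At an unadjusted p under 0.05 there were 12 genes, all lower in row 1 (TM7SF2, NSDHL, ACAT2, FDFT1, MSMO1, NPC1, SQLE, HMGCS1, FDPS, LSS, IDI1 and SC5D), against a background of 7.31%. After adjustment 0 of 25 passed in limma, the smallest adjusted p being 0.255 for TM7SF2, and 0 of 10236 probes passed, a background of 0%. Unadjusted, 747 probes were under 0.05 with lower and 573 with higher values in row 1.

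ACAT2 differed most between the rows, by -0.99 ± 0.20 (SE of the fit), a signal 1.98 times as high in row 2. TM7SF2 followed at -0.79 ± 0.10, then NSDHL at -0.75 ± 0.13, NPC1 at -0.69 ± 0.18 and HMGCS1 at -0.66 ± 0.18. The rows did not overlap in ACAT2, IDI1, FDFT1, SQLE and NSDHL, 5 of 25 genes lower in row 1 against a background of 3.57%, nor in SCAP, the 1 gene wholly higher in row 1 (background 3.35%). Calls between the rows depended on the settings. With an intensity trend in limma's eBayes 5 genes passed (NSDHL, TM7SF2, ACAT2, FDFT1 and SQLE, adjusted p 0.0193 to 0.0450) beside 260 probes, and with normexp background correction ACAT2 and NSDHL passed (adjusted p 0.0480 and 0.0442) beside 92 probes.

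**Figure D3:**
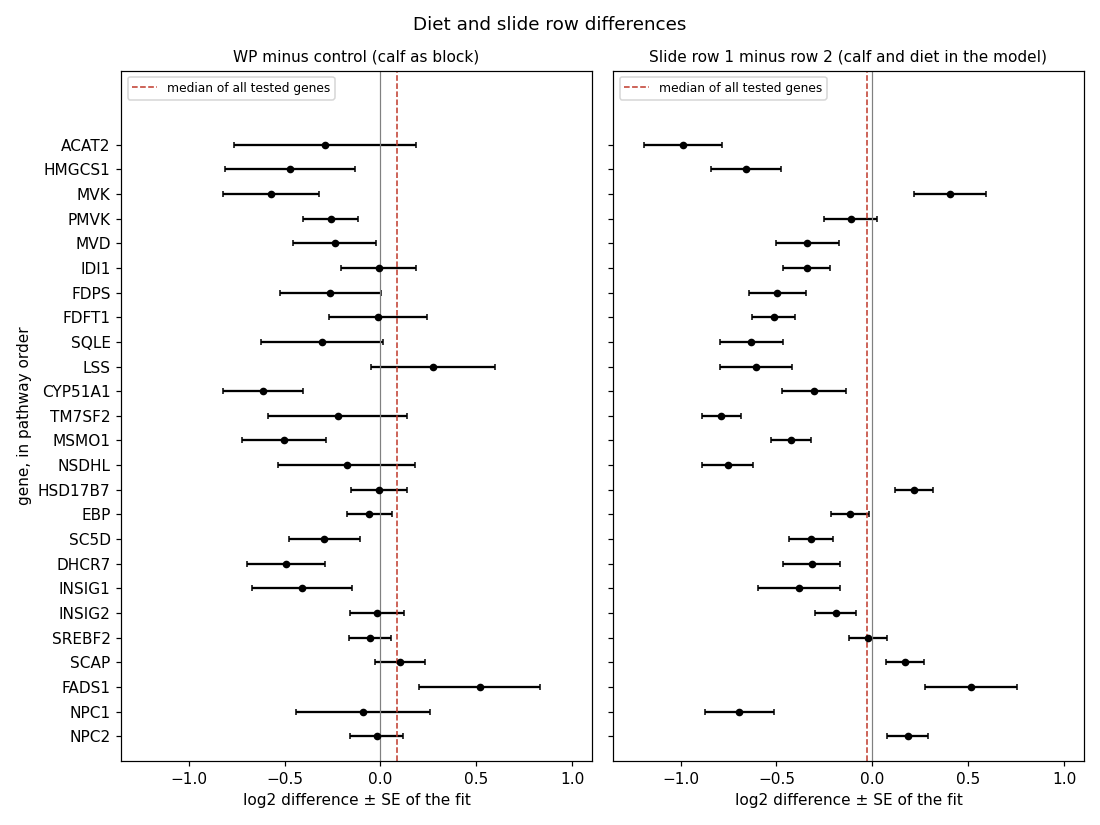
The horizontal axes are log2 differences with the SE of the limma fit as bars, for WP minus control on the left and slide row 1 minus row 2 on the right, and the vertical axis lists the 25 genes in pathway order. The dashed lines are the medians of all tested genes, 0.09 and -0.028; on the left CYP51A1 and MVK lie farthest below, and on the right ACAT2, TM7SF2 and NSDHL do.

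Single arrays were prominent. The control array of calf 21 held the highest of the 8 levels in 12 genes, all of them synthesis enzymes, which is 48% of the set against 12.6% of all tested genes. The WP array of the same calf held the lowest level in 12 genes, again 48%, against 10.9% of all tested genes. The WP array of calf 24 held the highest level in 30.9% of all tested genes but in 8% of the set. Without calf 21 the median row difference was still -0.34, and 4 of 25 genes had an unadjusted p under 0.05, all lower in row 1. Of all 10235 probes in that fit, 401 were under 0.05 with lower and 308 with higher values in row 1. After adjustment in limma 0 probes passed, the smallest adjusted p being 0.708. Without the other calves in turn the median row difference of the set ran from -0.42 to -0.24.

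**Figure D4:**
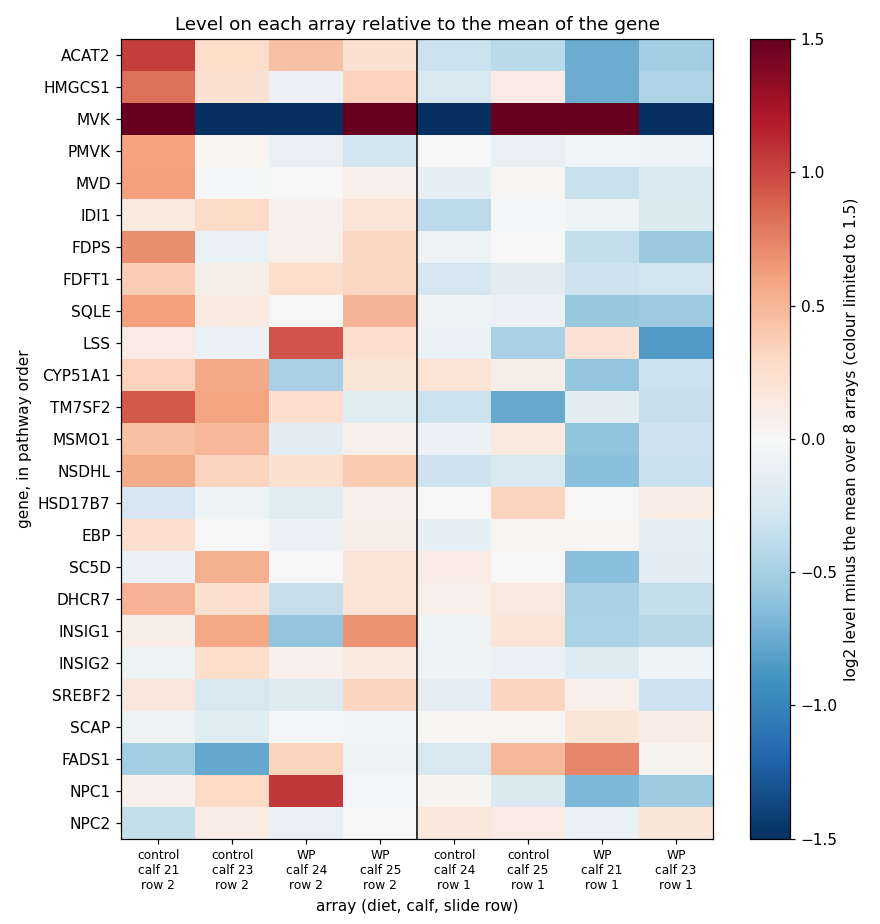
Each cell is the log2 level of 1 gene on 1 array minus that gene's mean over the 8 arrays, with genes in pathway order on the vertical axis and arrays on the horizontal axis, row 2 left of the black line and row 1 right of it; colour is limited to 1.5 on either side. The column of the control array of calf 21 is reddest in 12 enzymes and that of the WP array of calf 21 bluest in 12 genes, while MVK is red in calves 21 and 25 and blue in calves 23 and 24.

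The summed levels of 2 of 7 marker lists, basal epithelium and macrophage and dendritic cells, did not overlap between the slide rows, and their part in the differences of the sterol genes was not tested. No marker passed adjustment in limma for row or for diet. The summed level of the 11 tested basal epithelium markers (of 11 listed; the sum of signals relative to the array's 75th percentile) was 276 to 352 on the arrays of row 1 and 199 to 261 on those of row 2. Such a sum is set mostly by the brightest probes of its list. Of these markers 10 had higher values in row 1, with LAMB3, a laminin chain, at 0.97 and KRT5 at 0.58. For 10 tested suprabasal markers of 14 the sums overlapped, at 285 to 483 and 311 to 595, and their median row difference was -0.026. By diet they did not overlap, with 285 to 469 on WP and 480 to 595 on control, and 9 of the 10 markers had lower values on WP (median -0.84). Taken singly, only 1 of the 10, CST6, had all WP arrays below all control arrays, where the background was 1.17%. In every other marker list the sums overlapped between the diets. Of 11 basal markers 2 were lower on WP (median 0.27), and of 12 fibroblast markers 1 was (0.59). Lower values were found in 0 of 10 endothelium markers (median 0.41) and 0 of 6 smooth muscle markers (0.42). Among leukocyte genes, 3 of 5 for macrophages and dendritic cells (median -0.091) and 6 of 8 for lymphocytes (-0.21) were lower. Among leukocyte lists the 5 tested macrophage and dendritic cell markers of 11 summed to 4.01 to 5.05 in row 1 and 5.79 to 11.9 in row 2, and all had lower values in row 1. The sums were 0.686 to 1.01 and 0.902 to 3.40 for 8 lymphocyte markers of 12, with MS4A1 above background on no array. They were 12.2 to 24.1 and 15.9 to 51.0 for 12 fibroblast markers of 13, 5.99 to 10.5 and 4.40 to 8.07 for 10 endothelium markers of 11, where CDH5 was above background on no array, and 12.7 to 20.5 and 11.6 to 21.2 for 6 smooth muscle markers of 9. In a tissue sample fewer cells of a type and less RNA per cell cannot be told apart, and neither can slide row and anything else that the calf pairs share.

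**Figure D5:**
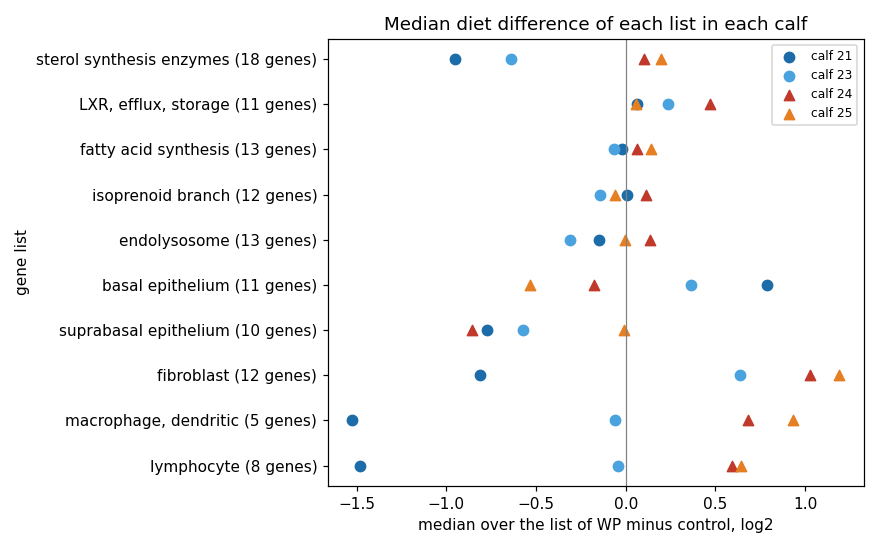
The horizontal axis is the median over a gene list of the WP minus control difference in log2 units, the vertical axis names the lists with their number of tested genes, and each point is 1 calf (circles 21 and 23, triangles 24 and 25). The sterol synthesis enzymes have both circles at -0.95 and -0.64 and both triangles above 0, basal epithelium markers have circles at 0.79 and 0.36 and triangles below 0, and leukocyte lists have their lowest point in calf 21.

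In the wider sterol network the medians lay nearer to 0; no difference between lists was tested. In a list of 14 other sterol supply genes 5 of 10 tested were lower on WP, with a median of -0.0088, and 5 of 10 were lower in row 1. TMEM97, a sterol-responsive membrane protein, gave -0.31 ± 0.33 (SD, n = 4), negative in 4 of 4 calves. Among SREBP processing genes 3 of 7 tested (of 10) were lower on WP, with a median of 0.09, 6 of 7 were lower in row 1, and SREBF1, the gene of the related factor SREBP1, gave 0.35 ± 0.53. The branch that leads from farnesyl pyrophosphate to prenylation, ubiquinone and dolichol had 7 of 12 tested genes (of 13) lower, with a median of -0.064, FNTB, a farnesyltransferase subunit, giving -0.27 ± 0.23.

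Genes of cholesterol efflux, storage and oxidation, a list that includes the LXR receptors that sense oxysterols, were close to the tested genes as a whole. In it 4 of 11 tested genes (of 13), 36.4%, were lower on WP, and the median was 0.14. CYP27A1, which makes 27-hydroxycholesterol, gave 0.46, 0.62, 0.68 and 0.38 in calves 21, 23, 24 and 25, a mean of 0.53 ± 0.14 (SD, n = 4; adjusted p = 0.658 in limma) with a row difference of 0.0046. Its difference was nonetheless -0.16 within row 1 and 1.23 within row 2, where different calves are compared. NCEH1, a cholesteryl ester hydrolase, gave 0.67 ± 0.58 and was positive in 4 calves as well. SOAT1, which esterifies cholesterol, gave -0.38 ± 0.71 and was lower in row 1 by -0.55, as most synthesis enzymes were. None of the genes in these 4 lists passed an adjusted p of 0.05 in limma, in either direction, for diet or for row.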

How the data were processed

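Each deposited scanner file gives an intensity per spot, corrected for background by Agilent's software (Feature Extraction, by the file headers version 11.0.1.1; the submitters' processing notes name 9.5). Labelling with Cy3 started from 500 ng of RNA, per the labels. A value table deposited by the authors is on a log2 scale; on each array it equalled log2 of the processed signal minus 1 constant, so scale and direction were settled by that comparison, and genes were not centred. Its column medians ran from -3.10 to -2.27, and it served as an alternative.

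Here levels were log2 processed signals less each array's 75th percentile, leaving out 536 control spots per array and 97 outlier spots, and spots of 1 probe were averaged. Tested probes were those that 4 or more of 8 arrays measured well above background (10236 of 15008, 68.2%), and the brightest such probe stood for its gene. RefSeq's gene table (ARS-UCD2.0) gave names for 11194 probes from the accession, for 3085 from the symbol and for 38 from an outdated one; the array's own name stood for 691. Tests were two-sided, from lmFit and eBayes of limma 3.58.1 (R 4.3.3), and calf was a block, since the series text states a cross-over and the labels give the calf numbers; deviations of a calf's 2 arrays correlated by 0.0090 to 0.195 across probes. Benjamini-Hochberg adjustment covered all tested probes. SD is over within-calf differences. The number of arrays limits the precision. The fit was run on simulated data with known differences added, as a check of the code. That run does not show whether differences of the sizes given here could be detected.

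Values on all arrays are printed for the 8 genes of smallest p for diet, the 8 for slide row, and 8 chosen by role; context lists name up to 4 genes each. The genes, lists and tests were chosen with earlier results of these data known. Alternatives covered background correction, scaling, value table, dim-probe filter, probe choice, prior, calf block, slide row and each calf left out. Promoter and protein sequences were not used here.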

Additional observations from a re-analysis of the deposited data

Results flagged for a closer look

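In 4 of the 50 groups of 4 arrays examined (25 genes on each diet) 1 array lay far from the other 3 by Dixon's test, where chance gives about 1 in 20. FDPS read 4.59 on the control array of calf 21, against 3.79 to 3.88 on the other control arrays. NPC2 read 1.62 on that same array, below the 2.09 to 2.13 of the others. INSIG1 read 1.74 on the WP array of calf 25, above the 0.48 to 0.65 of the other WP arrays. INSIG2 read -0.76 on the control array of calf 23, above the -1.11 to -1.08 of the others. Outside the main measurement, the E1A array-control probes had a median signal of 40.7 on the WP array of calf 24 and 1.36 to 1.97 on the other 7 arrays, the control-diet arrays included.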

How the results depend on the processing

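The count of 0 genes of the set called between the diets was the same in all 15 alternatives. Of 373 gene values under these alternatives, 340 kept the sign of the diet difference and 33 did not, and 12 genes kept it in every alternative run. Many of the signs kept could not have changed. The alternatives for dim-probe filter, probe choice, prior, calf block and slide row as a second block left each gene's difference as it was. The authors' value table shifted differences only slightly, for IDI1 from -0.0098 to -0.012. Quantile scaling moved the median difference of all genes from 0.09 to -0.015, and the share of genes lower on WP from 35.6% to 52.4%; the median of the 25 genes was then -0.22, with 20 lower. With no replicate block (calf left out) diet differences were unchanged by construction, 22 of 25 genes lower, with 0 calls; between rows that fit called 8 probes, none of the 25 genes among them. With an intensity trend 260 probes and 5 genes were called between rows, and with normexp 92 and 2; the cause was not tested. Leaving out each calf in turn gave 14 to 20 genes lower on WP, a median between -0.35 and -0.0050, and a row median between -0.42 and -0.24. Of all tested genes 34.3% to 42.0% were lower on WP in these runs. Signs turned with normexp in INSIG2 (0.027) and NPC1 (0.11), and with quantile scaling in IDI1 (0.030), FDFT1 (0.053), LSS (-0.25) and SREBF2 (0.0077). Within row 1 they turned in IDI1 (0.068), LSS (-0.027), TM7SF2 (0.28) and EBP (0.0045), and within row 2 in FDFT1 (0.059), HSD17B7 (0.10), INSIG2 (0.0079), SREBF2 (0.10), NPC1 (0.33) and NPC2 (0.061). With calves left out in turn, ranges that crossed 0 were -0.64 to 0.21 for ACAT2, -0.17 to 0.15 for IDI1, -0.45 to 0.0066 for FDPS, -0.19 to 0.21 for FDFT1, -0.49 to 0.062 for TM7SF2, -0.44 to 0.16 for NSDHL, -0.10 to 0.076 for INSIG2, -0.46 to 0.15 for NPC1, -0.092 to 0.080 for HSD17B7 and -0.11 to 0.065 for NPC2. The row fit has 2 residual degrees of freedom per probe, which limits its p-values. LSS and MVK were dim on some arrays and FADS1 on all of them, which limits their differences.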

Other observations

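Fatty acid synthesis genes, which share SREBP regulation with the sterol enzymes, had 6 of 13 tested members (of 15) lower on WP, with a median of 0.15. ELOVL1, an elongase of the long saturated chains found in ceramides, was lower on WP in all 4 calves, by -0.78, -0.38, -0.85 and -0.42 in calves 21, 23, 24 and 25, a mean of -0.61 ± 0.24 (SD, n = 4; adjusted p = 0.658 in limma). Its row difference was 0.027. TECR, a reductase of the same elongation cycle, gave -0.34 ± 0.35. SCD, the stearoyl-CoA desaturase, had the split of the sterol enzymes, negative in calf 21 (-0.93) and calf 23 (-0.95), positive in calf 24 (0.17) and calf 25 (0.24), with a row difference of -0.57. MLXIPL, a carbohydrate-responsive transcription factor, gave 0.43 ± 1.19 and was lower in row 1 by -0.87.

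Late endosome and lysosome genes, the compartment in which NPC1 and NPC2 act, had 8 of 13 tested members (of 14) lower on WP, with a median of -0.019. CTSD, a lysosomal protease, gave -0.28 ± 0.37 and CTSB, another, -0.42 ± 0.68 (SD, n = 4). For CTSB the values of calves 21, 23, 24 and 25 were -0.73, -1.23, 0.16 and 0.13.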
